A study of Nothobranchius furzeri with 20 samples.

Results

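The 150 genes described here were each lower in 5 of the 20 killifish skin libraries, those titled JM132 to JM136, than in every other library. They were chosen by a rule on these same values. Counts were scaled to CPM, a gene's count relative to the total count of its library, and put on the scale log2(CPM + 0.5). Of 26739 genes in the table, 16648 had a mean of 1 to under 1000 CPM over the 20 libraries. A gene was kept if its highest value in JM132 to JM136 lay below its lowest value in all 15 other libraries, if the range of JM140 to JM144 overlapped that of the 9-week fish, and if the ranges of exercised and unexercised 9-week fish overlapped each other. The first condition left 686 genes, 4.12% of the window. The second removed 181 and the third another 30, so that 475 genes, 2.85% of the window, met the whole rule. The 150 with the largest gap were taken, and the 325 with smaller gaps were left out.

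The series measured RNA from skin of male turquoise killifish (Nothobranchius furzeri) of the strain MZM-04/10p. There were 5 libraries from unexercised fish of 9 weeks (JM124 to JM128), 5 from 9-week fish that had been exercised by swim tunnel (JM117 to JM121) and 10 from swim-tunnel fish of 27 weeks. The 27-week libraries share 1 label, and their titles form the numbered runs JM132 to JM136 and JM140 to JM144. The labels give no condition that separates the runs, and no unexercised fish of 27 weeks were analysed here. The runs stand apart in many genes: edgeR called 41.6% of 18306 genes at an adjusted p under 0.05 between them, and whether this comes from the fish, their handling or the libraries cannot be told apart. All groups share strain, sex and tissue. Total counts were 20597690 to 38619614 per library. The labels do not state that each library came from its own fish, so the spread between the libraries, called fish here, may in part be technical.

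The turquoise killifish is an annual fish that lives through its whole adult life within months, which makes it a model of vertebrate ageing. Fish skin is a layered tissue of living epithelial cells, mucous cells and pigment cells over a collagen-rich dermis with scales, nerves, vessels and immune cells. A gene measured low in such bulk tissue can have less RNA per cell or come from a cell type that makes up less of the sample, and these cannot be told apart here. The files give gene identifiers without names, and 0 of the 26739 identifiers matched the reference gene table of N. furzeri. No member is therefore given a name, a function or a sequence, and the skin label could not be set against marker genes. At most 2 identifiers per direction are printed for a comparison.

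In JM132 to JM136 the typical member was at 32.6% of its mean in the 15 other libraries. Together the 150 members took 0.261% ± 0.0125 (SD, n = 5) of all counts there, with single libraries from 0.246% to 0.273%. They took 0.901% ± 0.0929 in unexercised fish of 9 weeks, 0.828% ± 0.0911 in exercised fish of 9 weeks and 0.697% ± 0.0274 in JM140 to JM144 (SD, n = 5 each). The lowest of these 15 other libraries was at 0.670% and the highest at 0.995%. The sum is not that of a single gene: the most abundant member made up 9.20% to 10.8% of it on average in each set, and without it the sums were 2364 ± 146 CPM in JM132 to JM136 and 6331 ± 416 CPM in JM140 to JM144 (SD, n = 5 each). These values chose the members, so they are a description and carry no test.

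The typical member was low in each of the 5 fish. The median over the 150 members, relative to each gene's own 9-week mean, was -1.71 (JM132), -1.72 (JM133), -1.54 (JM134), -1.70 (JM135) and -1.45 (JM136) on the log2 scale. It was -0.46, -0.49, -0.31, -0.27 and -0.36 in JM140 to JM144, and between -0.28 and 0.17 in the 10 libraries of 9 weeks. Over all 16648 genes of the window the same median lay between -0.05 and 0.22 in JM132 to JM136, between -0.29 and -0.12 in JM140 to JM144 and between -0.16 and 0.13 at 9 weeks. Set against that median of its own library, the members stood at -1.74 to -1.58 in JM132 to JM136 and at -0.21 to -0.13 in JM140 to JM144.

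**Figure D1:**
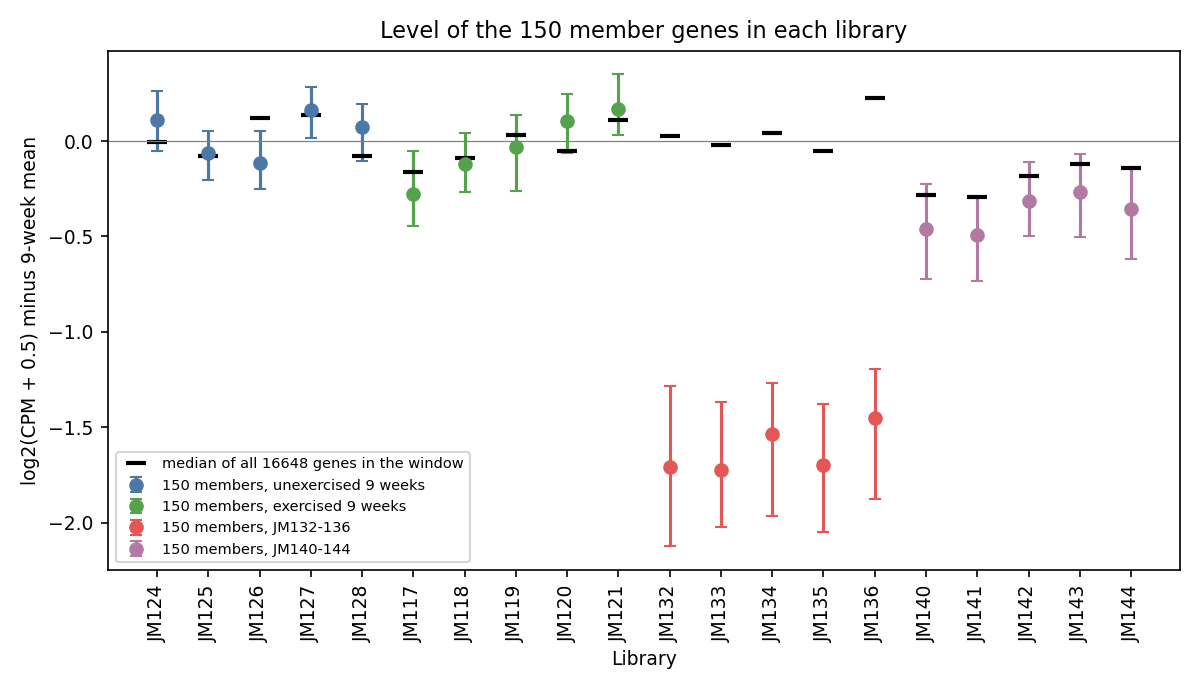
Each point is the median over the 150 members of log2(CPM + 0.5) minus the gene's 9-week mean (y axis) in a library (x axis), bars span the middle 50% of members, and black dashes give the median of all 16648 genes of the window. JM132 to JM136 sit between -1.72 and -1.45, while every other library lies between -0.49 and 0.17.

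**Figure D2:**
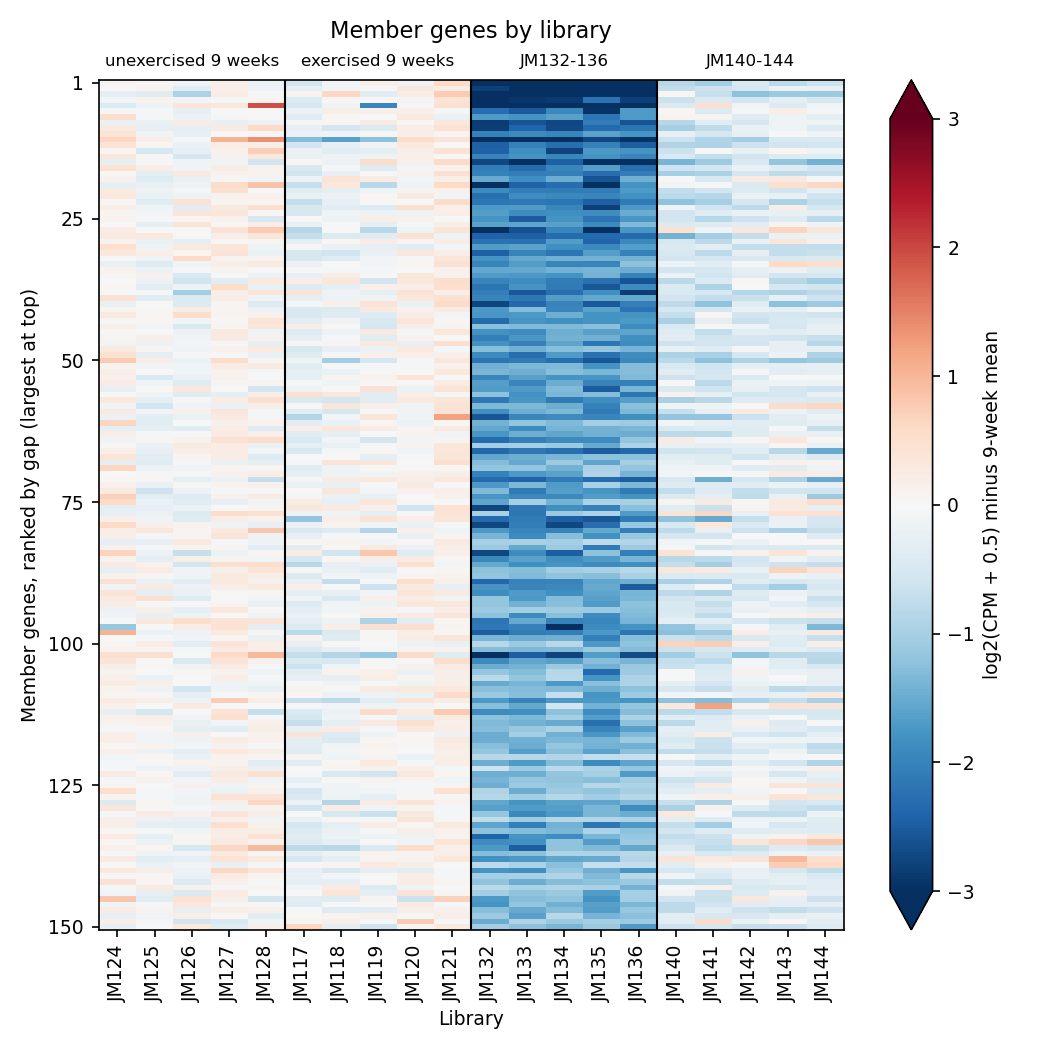
Rows are the 150 members from the largest gap at the top, columns are the 20 libraries in their 4 sets, and colour gives log2(CPM + 0.5) minus the gene's 9-week mean, with colours ending at -3 and 3. The 5 columns JM132 to JM136 are blue in all rows, and JM140 to JM144 are mostly pale blue.

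Nfu_g_1_006266 had the widest gap of all members, with a gene length of 11.6 kb. It had 0.631, 0.717, 0.886, 0.880 and 0.734 CPM in JM132 to JM136, which are 13 to 34 reads per library. In JM140 to JM144 it had 6.90, 6.06, 9.21, 7.22 and 7.91 CPM. All 5 of these fish lay far above the first run, at a ratio of means of 9.69. Exercised 9-week fish had 8.51, 12.03, 14.7, 11.9 and 19.3 CPM and unexercised ones 13.6, 13.0, 11.5, 14.49 and 10.998 CPM. The mean of the 9-week fish was 16.9-fold that of JM132 to JM136, and the edgeR log2 fold change of that run was -4.16 (SE 0.201) against exercised 9-week fish and -3.54 (SE 0.168) against JM140 to JM144.

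Nfu_g_1_006079 was the most abundant member, with a mean of 680.2 CPM over all libraries, or 99.3 CPM per kb of its 6.85 kb. Its values in JM132 to JM136 were 267, 229, 238, 319 and 161 CPM. They were 696, 873, 535, 447 and 629 CPM in JM140 to JM144, so the highest fish of the first run and the lowest of the second were 0.49 apart on the log2 scale. In 9-week fish the exercised libraries held 1002, 896, 591, 1097 and 768 CPM and the unexercised ones 826, 1093, 800.4, 1042 and 1099 CPM. The ranges of all 3 other sets overlapped each other. The edgeR log2 fold change of JM132 to JM136 was -1.94 (SE 0.256) against exercised 9-week fish and -1.68 (SE 0.258) against JM140 to JM144.

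The members differed widely in the size of the step. Across them the mean of the 15 other libraries was 1.73-fold to 20.1-fold that of JM132 to JM136, with a median of 3.07-fold. It was at most 2-fold in 6 of 150, over 3-fold in 77, over 4-fold in 35 and over 8-fold in 7. These 7 had mean levels of 1.75 to 97.0 CPM. Against the 9-week fish alone the median ratio was 3.29-fold, and against JM140 to JM144 alone it was 2.46-fold. The gap itself, between the highest fish of JM132 to JM136 and the lowest of the others, was smaller: it was 4.73-fold in the first member, 4.16-fold in the second and 4.08-fold in the third, with a median of 1.49-fold, and it exceeded 2-fold in 18 members. The last 2 members had gaps of 0.344 and 0.342 on the log2 scale, and the first 2 genes left out had 0.338 and 0.338, so the list ends within a continuous run of values.

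Members came from a wide range of levels within the window, with means of 1.75 to 680 CPM. A mean under 10 CPM was found in 36, one of 10 to under 100 CPM in 98 and one of 100 CPM or more in 16. Their median was 20.3 CPM, against 13.0 CPM over the window, and per kb of gene it was 6.16 against 5.12 CPM per kb. The median step was 3.08-fold in the 75 with the lower levels and 3.02-fold in the 75 with the higher levels. The 16 strongest ranged from 2.15-fold to 4.68-fold. No member was at 0 reads in any library of JM132 to JM136, and the lowest count there was under 10 in 3 members and under 100 in 55. The lowest of all was 3 reads, so the largest ratios among weak members rest on few reads, and counting error alone is then large.

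The rule and its ranking by gap favour genes with little spread between fish, so the spread is given as a description only. The median SD of log2(CPM + 0.5) over members was 0.25 in JM132 to JM136, 0.23 in JM140 to JM144, 0.26 in exercised and 0.23 in unexercised 9-week fish (n = 5 each). Over all genes of the window these medians were 0.27, 0.25, 0.24 and 0.24. In the typical member the highest of the 5 fish of JM132 to JM136 was 1.62-fold the lowest, and in 37 members it was more than 2-fold. JM136 was the highest fish of its run in 54 members, JM135 in 36, JM134 in 28, JM132 in 20 and JM133 in 12. JM136 was also the library of that run in which the median of all genes was highest, at 0.22. Whether that shift has a part in its rank was not tested.

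On the other side of the gap, the lowest of the 15 other fish was one of JM140 to JM144 in 123 members, an exercised 9-week fish in 17 and an unexercised one in 10. JM141 held this place in 44 members and JM140 in 39, and JM144 in 19. JM140 and JM141 are also the libraries with the lowest medians over all genes, -0.28 and -0.29. The part of that shift in the boundary was not tested.

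The fish of JM140 to JM144, which have the same label as JM132 to JM136, stood near the 9-week fish for these genes but mostly a little below them. Their mean on the log2 scale was below the 9-week mean in 88.7% of the 150 members and not below it in 17, with a median difference of -0.38 (range -1.10 to 0.50). All genes of the window showed a median of -0.20, and 72.1% of them were lower. With TMM scaling, which evens out differences in composition between libraries, the members' median was -0.19 with 79.3% of the 150 lower, and that of all genes was -0.02 with 53.0% lower. Relative to the median of all genes the members were at -0.18 by column totals and at -0.17 by TMM. On the way from the 9-week mean to that of JM132 to JM136, the typical member in JM140 to JM144 had gone 25.1% by column totals and 11.9% by TMM. It lay nearer to the 9-week mean than to JM132 to JM136 in 149 of 150 members by column totals and in 150 by TMM. The rule asked for ranges of JM140 to JM144 and 9-week fish that overlap, so this is a description of what it allowed.

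**Figure D3:**
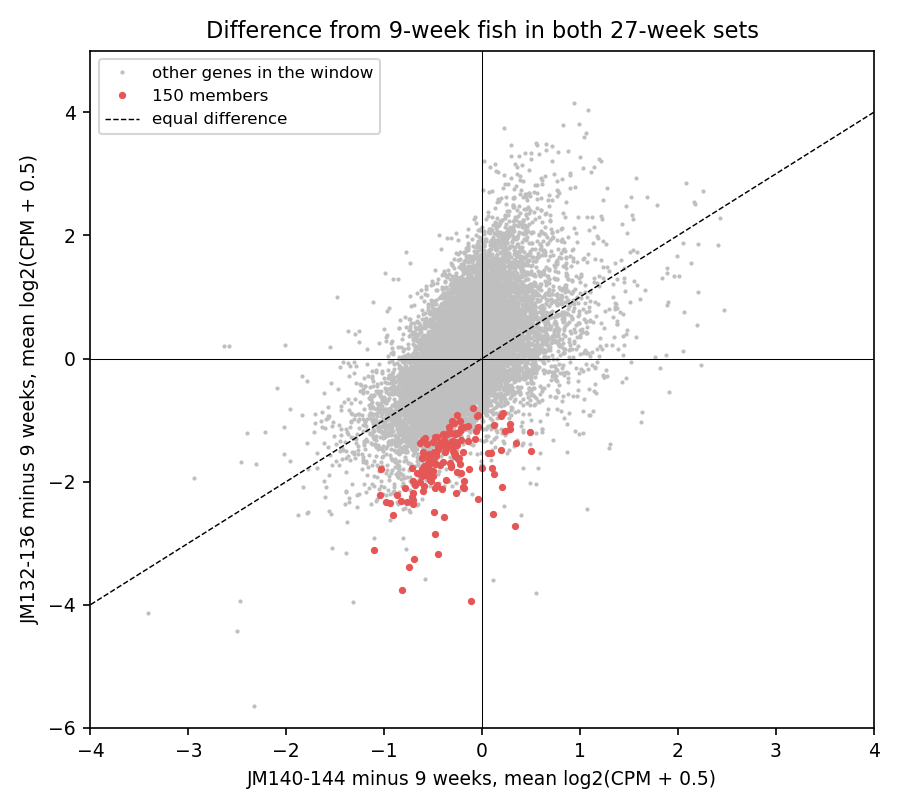
Each point is a gene of the window, with its mean difference from all 9-week fish on the log2(CPM + 0.5) scale in JM140 to JM144 (x axis) and in JM132 to JM136 (y axis), and members are red. Members lie between -3.94 and -0.80 on the y axis and between -1.10 and 0.50 on the x axis, all of them below the dashed line of equal difference.

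In edgeR's quasi-likelihood test of JM140 to JM144 against exercised 9-week fish, at an adjusted p under 0.05, 22 of 150 members were lower and 7 were higher, where 7.63% of all 18234 genes tested were lower and 8.42% higher, 16.1% in all. The median log2 fold change was -0.18 over members and 0.00 over all genes. The rule had used these values, so nothing is read from the counts. Leaving out a fish lowered the calls among all genes and among members alike. The 29 member calls became 14 without JM144, where 10.1% of all genes tested were called. They became 16 without JM119, JM120 or JM121, with 10.4%, 10% and 11.6% of all genes, 18 without JM141 or JM143, with 14.5% and 10.5%, and 19 without JM140 or JM118, with 11.9% and 11.3%.

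The most negative members in that comparison were Nfu_g_1_003848 and Nfu_g_1_018844. Nfu_g_1_003848 had 1.84, 0.677, 1.797, 1.18 and 0.646 CPM in JM140 to JM144 and 2.62, 3.36, 3.57, 3.25 and 3.52 CPM in exercised 9-week fish. These 2 sets did not overlap, while the unexercised fish, at 2.90, 2.84, 2.20, 2.35 and 1.49 CPM, overlapped JM140 to JM144. Its level in JM132 to JM136 was 0.146, 0.108, 0.257, 0.155 and 0.0847 CPM, from 3 to 9 reads. Its edgeR log2 fold change in JM140 to JM144 was -1.23 (SE 0.297).

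Nfu_g_1_018844 had 9.31, 11.7, 18.3, 10.7 and 9.12 CPM in JM140 to JM144, all below the 26.4, 22.3, 36.5, 28.0 and 37.5 CPM of exercised 9-week fish. The unexercised fish had 20.65, 24.5, 23.1, 23.2 and 16.7 CPM, and the last of them lay below JM142, so the sets met there. JM132 to JM136 were lower again, at 3.35, 1.04, 4.20, 2.46 and 2.399 CPM. The edgeR log2 fold change was -1.17 (SE 0.198) in JM140 to JM144 and -3.57 (SE 0.305) in JM132 to JM136, each against exercised 9-week fish. In both genes JM140 to JM144 lay between JM132 to JM136 and the exercised 9-week fish. The rule placed JM132 to JM136 lowest, and both genes were picked as the most negative here, so this order of means was fixed by their selection.

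The most positive were Nfu_g_1_013197 and Nfu_g_1_016752. Nfu_g_1_013197 had 6.11, 11.8, 5.17, 6.66 and 6.38 CPM in JM140 to JM144 against 4.56, 4.501, 4.27, 4.46 and 4.88 CPM in exercised and 5.38, 4.86, 5.90, 4.66 and 4.74 CPM in unexercised 9-week fish. JM132 to JM136 had 1.70, 1.33, 3.06, 1.48 and 1.86 CPM. JM141 stood far above the other fish of its run. The edgeR log2 fold change of JM140 to JM144 over exercised 9-week fish was 0.85 (SE 0.228), and 0.57 without JM141. It no longer passed the threshold without JM118, JM119, JM120 or JM121, where it was 0.86, 0.82, 0.86 and 0.84.

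Nfu_g_1_016752, a short gene of 0.405 kb, had 44.9, 29.7, 41.0, 51.2 and 41.6 CPM in JM140 to JM144. Exercised 9-week fish had 17.7, 32.5, 18.1, 29.0 and 42.7 CPM and unexercised ones 37.9, 32.0, 33.0, 43.9 and 54.8 CPM, so JM140 to JM144 lay within the range of the unexercised fish except for JM141, just under it. JM132 to JM136 held 2.33, 4.80, 7.89, 1.92 and 9.29 CPM, a wide spread with JM136 highest. The edgeR log2 fold change was 0.75 (SE 0.217) in JM140 to JM144. It was 0.63 to 0.79 and no longer past the threshold without JM140, JM142, JM143, JM144, JM117, JM119 or JM120.

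**Figure D4:**
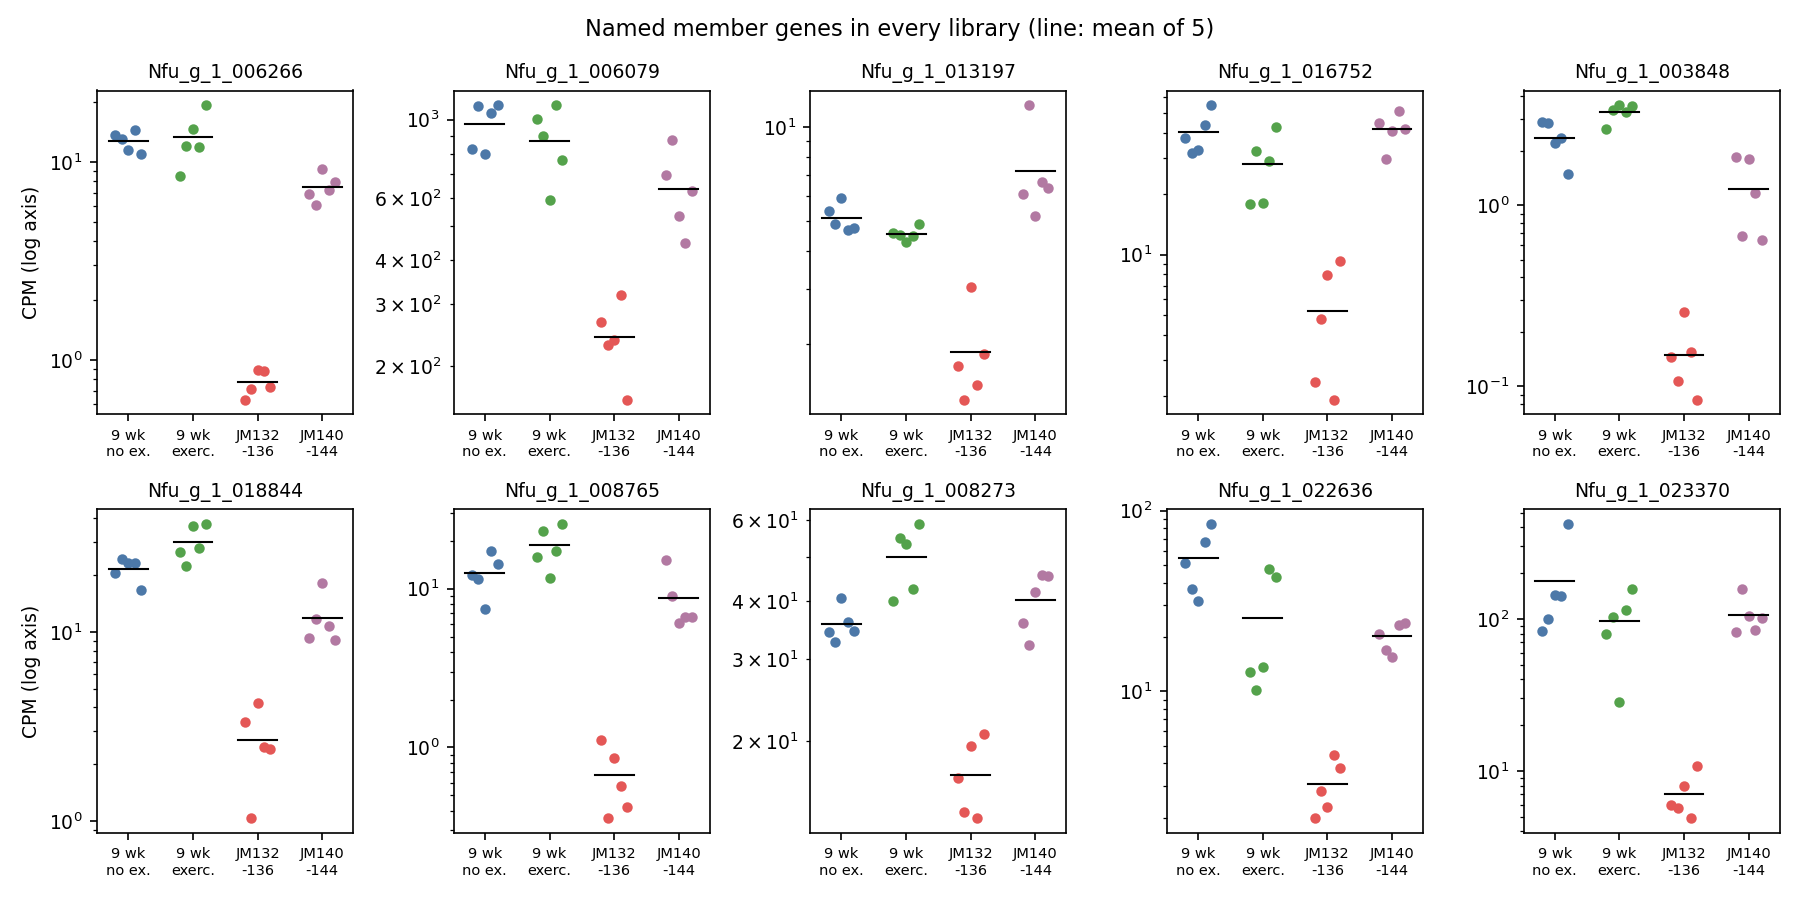
Each panel shows a member named in the text, with its CPM on a log axis in the 20 libraries by set, and a line at the mean of 5. In all 10 panels the 5 points of JM132 to JM136 lie below the other 15, and the order of the 3 other sets differs from panel to panel.

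In exercised fish of 9 weeks the members were near their level in unexercised fish, as the rule required of their ranges. The median difference of exercised minus unexercised fish was -0.08 on the log2 scale by column totals, with 98 of 150 lower. By TMM it was 0.00, with 73 lower, and by DESeq2's size factors -0.02, with 82 lower. All genes of the window gave -0.06 by column totals, 0.02 by TMM and -0.003 by size factors, so no direction is read from the members' median. In edgeR's test 0 of 150 members had an adjusted p under 0.05, where 0.0108% of 18520 genes were called. At an unadjusted p under 0.05 there were 22 members, 14.7% of them, against 14.8% of all genes. DESeq2 called 5 members, 3 higher and 2 lower, against 1.48% of all genes higher, 1.33% lower and 2.8% in either direction.

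The members with the most positive difference were Nfu_g_1_008765 and Nfu_g_1_008273. Nfu_g_1_008765, of rank 3 by gap, had 15.9, 23.3, 11.7, 17.4 and 25.7 CPM with exercise and 12.3, 11.5, 7.48, 17.4 and 14.3 CPM without it, and these ranges overlapped. In JM132 to JM136 it had 1.12, 0.359, 0.857, 0.570 and 0.423 CPM, the lowest share of the other libraries of all members, at 4.98% of their mean. JM140 to JM144 had 15.2, 8.98, 6.09, 6.63 and 6.62 CPM. Its edgeR log2 fold change with exercise was 0.62 (SE 0.249).

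Nfu_g_1_008273 had 40.1, 54.7, 53.2, 42.5 and 58.9 CPM with exercise and 34.4, 32.6, 40.8, 36.2 and 34.6 CPM without it, with only JM117 and JM126 crossing. It had 35.9, 32.3, 41.8, 45.5 and 45.4 CPM in JM140 to JM144 and 16.6, 14.0, 19.5, 13.6 and 20.64 CPM in JM132 to JM136. The log2 fold change with exercise was 0.53 (SE 0.0906) in edgeR, and DESeq2's 5 calls include this gene.

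The most negative were Nfu_g_1_022636 and Nfu_g_1_023370, both of which varied widely among 9-week fish. Nfu_g_1_022636 had 12.8, 10.1, 13.6, 47.4 and 42.8 CPM with exercise, so that 3 fish were low and 2 lay within the range of unexercised fish, which had 51.1, 37.0, 31.8, 67.3 and 84.7 CPM. JM140 to JM144 were even, at 20.7, 17.0, 15.6, 23.4 and 24.02 CPM. JM132 to JM136 had 1.99, 2.80, 2.29, 4.43 and 3.78 CPM. Its edgeR log2 fold change with exercise was -1.09 (SE 0.469).

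Nfu_g_1_023370 had 79.2, 103, 28.2, 115 and 158 CPM with exercise and 83.4, 100.5, 143.03, 141.48 and 423 CPM without it. JM128 alone stood above all exercised fish, and the edgeR log2 fold change went from -0.87 (SE 0.529) to -0.19 without it. JM140 to JM144 had 82.2, 157, 104, 84.3 and 102 CPM, inside the range of the 9-week fish. JM132 to JM136 had 5.92, 5.74, 7.95, 4.89 and 10.8 CPM, 15.04-fold below JM140 to JM144 by means.

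When the 10 fish of 27 weeks are taken as their label groups them, fewer members passed the test. In edgeR's test of all 27-week fish against exercised 9-week fish, 32 of 150 members were called lower and 0 higher, where 11.3% of 18801 genes were lower and 13.2% higher. The 32 had log2 fold changes of -2.11 to -0.72. For the members that were not called the median was -0.67, although the same genes had a median of -1.67 in JM132 to JM136 alone against the same exercised fish. With JM132 to JM136 tested alone, 150 of 150 members were called lower, against 24.5% of 18348 genes for exercised 9-week fish and 20.3% of 18306 genes for JM140 to JM144 as reference. DESeq2 also called all 150 lower in both, against 23.7% and 20.5% of its genes. The rule chose the members on these contrasts, so nothing is read from these counts. The number called with age moved with single fish, and so did the share of all genes called in either direction, which was 24.5% with all fish. Members called were 6 without JM120, 7 without JM121, 12 without JM118, 14 without JM119 and 17 without JM117, where 13%, 14.5%, 16.5%, 14.8% and 19% of all genes were called. They were 20 without JM132 and 51 without JM142, where the shares of all genes were 19.9% and 28.5%. DESeq2 called 44, all lower, against 13.2% of its 20027 genes.

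Gene length was not used by the rule. The members had a median length of 3.75 kb and quartiles of 2.05 and 6.67 kb, against 2.82 kb (1.43 to 4.84 kb) over the 16648 genes of the window. Of the members 60, or 40.0%, lay above the upper quartile of the window and 20, or 13.3%, below the lower one. The 325 other genes that met the rule had a median of 3.21 kb. The 150 genes with the largest gap in the opposite direction, high in JM132 to JM136 by the mirrored rule, had a median of 2.76 kb. Lengths span 0.345 to 19.502 kb among members. They differed with level: the 36 members under 10 CPM had a median of 2.05 kb, and the 16 at 100 CPM or more had 5.87 kb. Members also had a higher median level than the window, 20.3 against 13.0 CPM, and lengths were not compared at matched levels. Lengths are those behind the deposited RPKM values, and no set test was made.

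Over all genes of the window, differences between libraries also had a small slope with gene length. Each gene's deviation from its own mean on the log2(CPM + 0.5) scale was regressed on log2 length within each library, and the slope averaged -0.0346 ± 0.0172 in JM132 to JM136 and -0.00222 ± 0.0144 in JM140 to JM144 (SD, n = 5 each). It was 0.0239 ± 0.0139 in exercised and 0.0129 ± 0.00428 in unexercised 9-week fish (SD, n = 5 each). All 5 slopes of JM132 to JM136 were below 0, from -0.0608 to -0.0175, and they overlapped those of JM140 to JM144, which reached -0.0256 in JM141. The part of this trend in the members' length was not tested. Among the members themselves the step had a median of 3.23-fold in the 75 shorter and 2.85-fold in the 75 longer members.

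**Figure D5:**
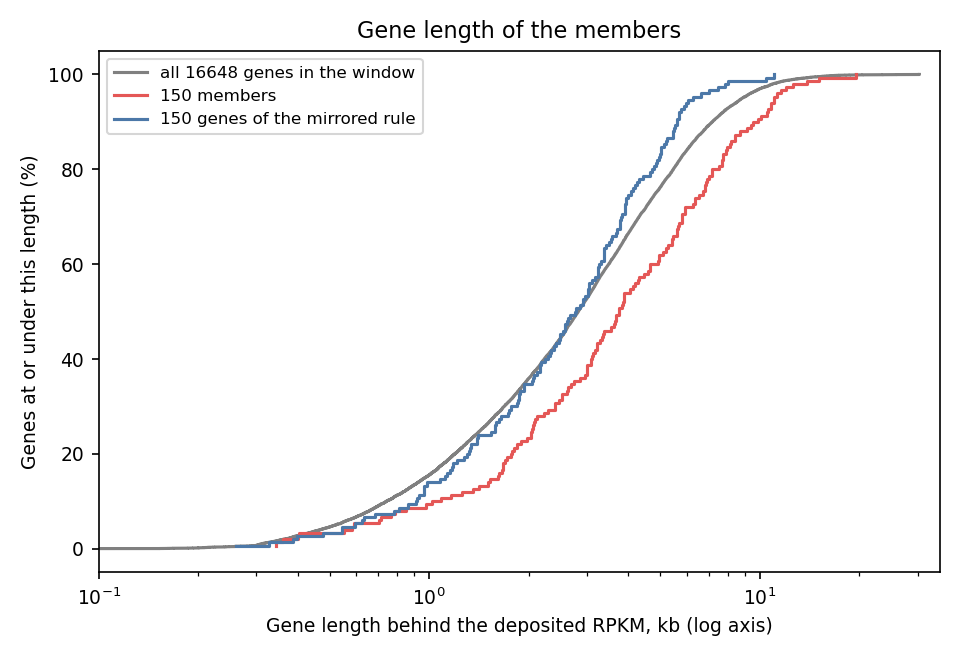
The curves give the share of genes (y axis, percent) at or under a gene length (x axis, kb, log scale) for the 150 members, the 150 genes of the mirrored rule and all 16648 genes of the window. The members' curve lies to the right, with a median of 3.75 kb against 2.76 and 2.82 kb.

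The variation from fish to fish inside a set was also compared between members. After subtraction of each set's mean, the median Pearson's r over the 11175 pairs of members was 0.20 across the 20 libraries, and that over all pairs of genes in the window was 0.13. Each member was then set against the mean of the other members. The median r was 0.46, over 0.5 in 70 members and below 0 in 11. Genes of the window that are not members had a median r of 0.23 with the members' mean, over 0.5 in 22.8% of them. The libraries share their scaling by column totals, which can add to every such correlation, and the values carry no test. The rule's non-overlap condition bounds the members' deviations. Members also had a higher median level than the window, 20.3 against 13.0 CPM, and genes were not matched for level. The main axis of differences inside the sets, which held 29.7% of that variance, had a median r of 0.21 with the members, against 0.00 over all genes. The sign of this axis is arbitrary. The quartiles of r were 0.02 and 0.34 for members and -0.25 and 0.23 for all genes. Single values ran from -0.73 to 0.70 in members and from -0.98 to 0.83 over all genes, so many other genes followed the axis in either direction.

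Of the 150 members, 3 pairs have consecutive identifier numbers. Their deviations inside the sets had correlations of 0.04, -0.22 and 0.69. Whether consecutive numbers mean neighbouring genes is not stated in the files, and overlapping genes could share reads.

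The number of genes that met the rule depended on the scaling. By TMM, 1240 genes met the same rule, and by DESeq2's size factors 1186. All 150 members lay below the 15 other libraries on both of these scales. On the deposited RPKM, whose library totals do not follow the columns, 92 of 150 did so. By column totals 4.12% of all genes in the window lay below in this way, and that share is not given here for the other scales. Each scale rests on the same counts that chose the members, so nothing is read from these numbers. The overlap of JM140 to JM144 with 9-week fish held in 148 by TMM and in 147 by size factors, and 105 of the 150 were among the 150 largest gaps on each scale. The mirrored rule, for genes high in JM132 to JM136, was met by 2415 genes by column totals, 14.5% of the window, and by 2016 by TMM. Going from column totals to TMM moved the median difference of all genes between JM132 to JM136 and JM140 to JM144 from 0.23 to -0.03 on the log2 scale. The members' median went from -1.24 to -1.50.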

How the data were processed

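The submitters' processing notes list featureCounts 1.4.6-p4, STAR 2.4.1d and bcl2fastq 1.8.4 as tools, and the protocol labels name the TruSeq RNA kit v2. Build, annotation and strand setting: not given in the sources used here. Whether overlapping genes and close copies share reads therefore cannot be told here. The authors deposited whole-read counts for each gene, which were not normalized. In the RPKM table the authors deposited, library totals do not follow the columns: over 10228 well-covered genes the median SD of the natural log of count over RPKM was 0.227 with own totals and 3.77e-05 with totals recycled down the rows. RPKM served only for gene lengths, from values of at least 5 counts and 0.05 RPKM, and as an alternative scale.

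CPM used column totals. Tests used edgeR 4.0.16 in R 4.3.3, with TMM, its expression filter, robust quasi-likelihood fits of only the libraries compared, and Benjamini-Hochberg adjustment over all genes tested at 0.05. Each SE was taken as the size of the log2 fold change over the root of its F statistic. DESeq2 1.42.0 was an alternative. The fits and the rule were checked on simulated counts. Libraries of a set differed beyond sampling noise in every pair (chi-square per degree of freedom at least 36.3).

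The members, lists and tests were chosen with earlier results of these data known. The identifiers named are the member with the largest gap, that with the highest mean CPM, and the 2 most positive and 2 most negative by edgeR log2 fold change for JM140 to JM144 and for exercise. Pathway and cell type lists were not run, because the identifiers have no names here.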

Additional observations from a re-analysis of the deposited data

How the results depend on the processing

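The number of genes that met the rule was 475, and 1240 on TMM-scaled CPM and 1186 with DESeq2's size factors. On the deposited RPKM it was 193, and 92 of the 150 members stayed below all other libraries. The share of all genes in the window that did so on RPKM is not given here, so nothing is read from the 92. Library totals behind those RPKM values do not follow the columns, so they do not compare libraries evenly. Offsets of 0.1 and 1 gave 475 and no window on the mean gave 497. Leaving out 1 fish gave 456 to 638 genes, and 110 to 148 of the members were among the 150 largest gaps. Leaving out a fish of JM132 to JM136 can only lower or keep the highest value of that run, and gave 506 to 638 genes. What moved the other counts was not tested. The median gene length was 3.66 kb for the 150 genes chosen on TMM-scaled CPM. The median of the set medians of the members' spread was 0.240 with all fish, 0.241 with TMM scaling and 0.228 to 0.246 without 1 fish. TMM scaling, like leaving out fish, was tried for this spread after the data were seen. In JM132 to JM136 the members called were 150 of 150 against either reference without any 1 fish, with DESeq2, with its size factors and with no filter. Of all genes tested in these settings, 32.2% to 42.2% were called in either direction against JM140 to JM144. Against exercised 9-week fish the share was 40% to 50.8%. The rule chose the members on these contrasts, so nothing is read from the 150 calls. Without 1 fish, JM140 to JM144 against exercised 9-week fish gave 14 to 25 member calls, with 10% to 14.5% of all genes called. DESeq2 gave 36 there, size factors in edgeR 30 and no filter 27, with 21.5%, 16% and 11% of all genes called. For all 27-week fish, leaving out 1 fish gave 6 to 51, with 13% to 28.5% of all genes called. DESeq2 gave 44 for them, size factors in edgeR 30 and no filter 28, with 29.5%, 24.5% and 18.6% of all genes. For exercise, DESeq2 called 5 members, where 2.8% of all genes were called. Every other alternative called 0 members, where at most 0.0376% of all genes were called. No named member changed direction under any alternative of its comparison. Counts of 3 to 9 reads limit the weakest members. No paired analysis was possible because the labels give no replicate numbers shared between groups.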
